A study of Homo sapiens with 3 samples.

Results

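TFE3 belongs to the MiT/TFE family of DNA-binding proteins, which join a leucine zipper to a basic helix-loop-helix region. As background, these factors bind E-box type sequences, are held in the cytoplasm by nutrient signalling through mTORC1 and folliculin, and are known for switching on lysosomal and autophagy genes. Factors of this kind bind both in groups of neighbouring sites, as around active promoters and enhancers, and at sites that stand alone. The sites described here are those that stand alone. They are HA-TFE3 summits found in both libraries, with no other such shared summit within 100 kb on either side. Summits listed in a single library were not counted as neighbours.

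The data are ChIP-seq, in which DNA bound by a protein is pulled down with it and sequenced, of TFE3 carrying an HA tag. The cells were HK-2, an established human line from the proximal tubule of the kidney, with an added HA-TFE3 gene that doxycycline switches on. The series holds 3 samples, which are 2 HA-TFE3 ChIP libraries precipitated with an anti-HA matrix and 1 input DNA library that was not used here. All 3 share the protocol, with medium of 1.5% serum and 24 h of culture in which 0.2 µg/ml doxycycline was or was not added, and the labels do not say to which libraries it was added. The tagged protein came from the introduced gene, no library from cells without it was analysed here, and the labels do not say that the ChIP libraries came from separate cultures or clones, so a spread between them may be technical.

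A summit is the single base that the authors listed as the centre of a peak, and each has a score of theirs, used here only to rank summits within a list. Summits of the 2 lists on chromosomes 1 to 22 and X formed a pair when they were mutual nearest neighbours no more than 100 bp apart, and the floor of the mean of the paired bases is the position of the pair. A pair was called isolated when no other pair lay within 100 kb on either side, and the first and last pair of each chromosome were left out. Of 47396 pairs, 2024 were isolated, or 4.27% (95% exact binomial interval 4.09 to 4.46). They made up 3.25% of the 62287 summits of replicate 1 and 2.79% of the 72647 of replicate 2. The 46 pairs at the ends of chromosomes included 13 with no pair within 100 kb on their open side. A further 8409 pairs were free of neighbours on a single side. The positions that chose the isolated pairs and the scores come from the same libraries, so positions, scores and the agreement of the lists are given as descriptions with no test. All intervals cover counting error only, and the read depth is unknown because the lists hold no read counts.

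Isolation was mostly moderate. The nearer neighbouring pair lay at a median of 156 kb (quartiles 121 and 234 kb) and the farther one at a median of 358 kb. For the other 45372 pairs these medians were 6.21 and 34.1 kb. The nearer neighbour lay beyond 200 kb for 666 isolated pairs (32.9%), beyond 500 kb for 116 (5.73%) and beyond 1 Mb for 20 (0.988%). Within 1 Mb on either side an isolated pair had a median of 18 other pairs (quartiles 9 and 29), against 52 (33 and 78) around the other pairs. Most isolated pairs thus stood in thinly occupied stretches that still held binding further away. At least 10 pairs lay within 1 Mb of 1487 isolated pairs (73.5%), against 98.3% of the other pairs.

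Some isolated pairs had others as neighbours. The neighbour of an isolated pair shares its empty stretch and is free on that side by the rule, so these counts are partly set by it. Of the 2024, 924 had an isolated pair as the neighbour on a single side and 358 had one on both sides, which left 742 between pairs that were not isolated. The longest run held 9 isolated pairs in succession over 4.04 Mb of chromosome 9, from base 28213161 to base 32251620 in 9p21.1. Runs of 8 lay on chromosome 1 in 1q31.1 to 1q31.2 (3.33 Mb), on chromosome 4 in 4p15.1 to 4p14 (3.08 Mb) and on chromosome 6 in 6q12 (2.80 Mb). A run of 7 on chromosome 9 spanned 26.4 Mb because it crossed the centromere and its heterochromatin, from 9p13.1 to 9q13.

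The 3 isolated pairs just inside the limit of 100 kb were at base 99567444 of chromosome 6, base 90937757 of chromosome 5 and base 134655711 of chromosome X, with the nearer neighbour at 100033, 100033 and 100053 bp. Their score percentiles, meaning the rank of the score within its own list, were 60.0, 28.3 and 97.3 in replicate 1 and 62.9, 62.0 and 98.6 in replicate 2. The 3 pairs just outside it were at base 70290441 of chromosome 15, base 140578330 of chromosome 4 and base 47067254 of chromosome 13, with the nearer neighbour at 99901, 99900 and 99894 bp. Their percentiles were 63.9, 37.3 and 72.7 in replicate 1 and 27.4, 44.7 and 14.0 in replicate 2. The limit crosses a continuous range of distances, with 270 isolated pairs whose nearer neighbour lay at up to 110 kb and 308 others at over 90 kb.

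Isolated summits had scores near the middle of each list, lower than those of the other pairs. Their scores ran from 1.99 to 148.7 in replicate 1, with a median of 8.55, and from 1.53 to 145.8 in replicate 2, with a median of 9.69. The median score percentile was 50.1 in replicate 1 and 56.1 in replicate 2, or 53.1 ± 4.2 (SD, n = 2 libraries). For the other pairs it was 59.5 and 65.1. The difference, isolated minus other, came to -9.34 points for replicate 1 and -8.92 for replicate 2, a mean of -9.13 ± 0.296 (SD, n = 2). Both differences rest on the same pairs, so this spread does not measure replication in separate experiments. Within chromosomes the isolated pairs had the lower median on 23 of 23 chromosomes in replicate 1 and on 21 of 23 in replicate 2. The exceptions in replicate 2 were chromosome 19 (77.0 against 71.7, with 20 isolated pairs) and chromosome 21 (67.2 against 60.3, with 26).

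The score was related to the distance from the next pair in steps. Pairs with a neighbour within 1 kb had median percentiles of 59.8 and 65.1 in replicates 1 and 2, and those with the nearest at 1 to 10 kb had 61.2 and 65.9. At 10 to 50 kb the medians were 57.2 and 63.7, and at 50 to 100 kb they were 55.8 and 60.3. Isolated pairs with the nearest at 100 to 200 kb had 50.1 and 56.1, and those at 200 to 500 kb had 50.1 and 54.1. Beyond 500 kb, the 116 pairs had 41.7 and 56.1, so that the libraries did not show the same order there. Many summits share a score (1995 distinct scores in replicate 1 and 2095 in replicate 2), and medians of different groups can therefore coincide. The 10 commonest scores among the isolated pairs covered 35.1% of them in replicate 1 and 33.0% in replicate 2. The 10 commonest among the other pairs covered 19.6% and 18.5% of those.

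**Figure D1:**
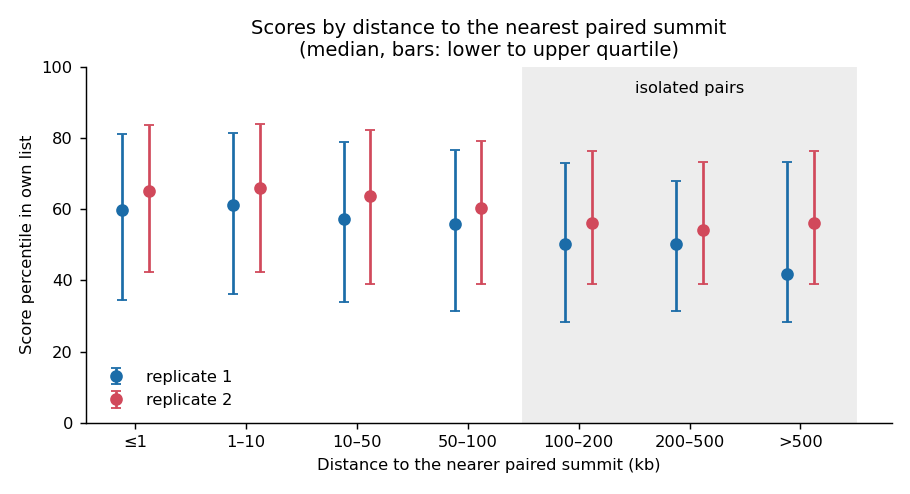
Score percentile in its own list (vertical axis, 0 to 100) of pairs grouped by the distance to the nearer paired summit in kb (horizontal axis); points are medians and bars run from the lower to the upper quartile, blue for replicate 1 and red for replicate 2. The shaded classes are the isolated pairs, whose medians lie between 41.7 and 56.1 and, within each replicate, below those of all classes with a nearer neighbour.

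The lower medians were also seen when pairs were grouped by the number of others within 1 Mb. The groups are broad, and that of at least 50 has no upper limit, so surroundings may still differ within a group. Among pairs with 10 to 19 others within 1 Mb, the 578 isolated ones had median percentiles of 48.3 and 56.1, and the 3287 others had 55.8 and 60.3. With 20 to 29 others within 1 Mb, the medians were 50.1 and 56.1 for 409 isolated pairs against 57.2 and 62.0. With 30 to 49, they were 54.1 and 60.3 for 383 isolated pairs against 58.2 and 63.2. With at least 50, they were 53.2 and 58.0 for 117 isolated pairs against 61.5 and 67.5. In the emptiest surroundings, with fewer than 10, the medians were 48.3 and 54.1 for 537 isolated pairs against 50.1 and 57.2 for 750 others.

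Read the other way, the share of pairs that were isolated was highest in the lower part of the score range. By decile of the mean score percentile it was 4.76% in the lowest decile, 5.73% in decile 4 and 2.43% in the highest (95% exact interval 2.01 to 2.91). Of the pairs ranked 101 to 1000 by mean percentile only 8 of 900 were isolated, or 0.889% (0.385 to 1.74). Among the 100 pairs of highest mean percentile 6 were isolated (2.23 to 12.6%), among the highest 50 there were 5 (3.33 to 21.8%) and among the highest 20 there were 3 (3.21 to 37.9%). These rank classes were chosen after their values were seen, the shares at the top rest on 3 to 6 pairs, and the interval of the highest 100 includes the share of 4.27% over all pairs. Without pairs beside centromeres, heterochromatin or stalks the highest 20 held 10% isolated, and when only the 10000 highest-scoring summits of each list were used the shares of the highest 20 and of ranks 101 to 1000 were nearly equal, at 30% and 28.7%.

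**Figure D2:**
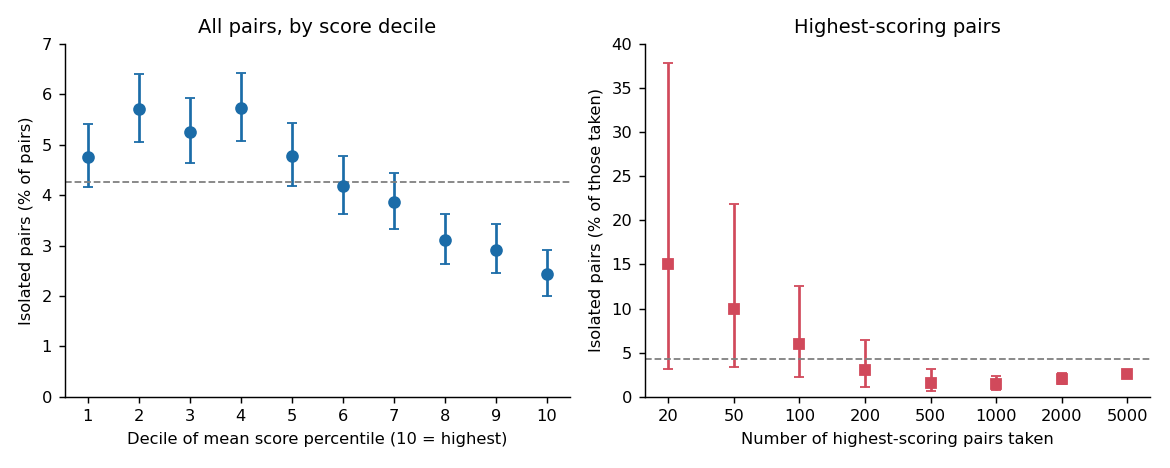
Share of pairs that were isolated in percent (vertical axes), by decile of mean score percentile on the left and among the stated number of highest-scoring pairs on the right. Bars are 95% exact binomial intervals and the dashed line is the 4.27% of all pairs; the share is 2.43% in the highest decile, and 15% among the highest 20, where the bar is wide because it rests on 3 pairs.

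The isolated pairs with the highest scores are given by their position on hg19. The first, at base 110076583 of chromosome 13 in 13q33.3, scored 148.7 in replicate 1 and 145.8 in replicate 2 and had rank 3 in each whole list. Its neighbours lay 113 kb to the left and 360.5 kb to the right, in a band of 100% stain. The next, in 2p11.2 at base 88124457 of chromosome 2, had scores of 111.4 and 104.4 and ranks of 8 and 9, with neighbours 179 and 177 kb away. Base 62284082 of chromosome 6 in the centromeric band 6q11.1 scored 76.4 and 88.4, with empty stretches of 3.97 Mb on the left and 0.712 Mb on the right. By mean percentile these pairs had ranks 3, 7 and 14 among all pairs.

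Scores of 82.7 and 75.1 belonged to base 96336774 of chromosome 3 in 3q11.2, a band of variable heterochromatin. Base 51183712 of chromosome 17 in 17q22 had 71.8 and 72.7, with no pair for 1.73 Mb on its left. Base 10492923 of chromosome 21 in the heterochromatic band 21p11.2 had 62.0 and 66.0. In 5 of these first 6 pairs the 2 summits lay within 10 bp of each other, against 24.0% of all isolated pairs. Among the 100 isolated pairs of highest score 28 did so. The distance within a pair also fell with score, from a median of 31.5 bp in the lowest decile of the other pairs to 20 bp in the highest. The share among other pairs of equally high score was not computed. Of the same 6, 3 lay in a centromeric or heterochromatic band (6q11.1, 3q11.2 and 21p11.2). The empty stretch of these reached a centromere, variable heterochromatin or stalk band, as did that of 50 of the 2024 isolated pairs (2.47%) and 0.655% of the other pairs. Whether reads collect at these 6 places without binding was not tested.

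The next 4 lay outside such bands and had lower scores. They were base 88555882 of chromosome 9 in 9q21.33 (57.1 and 50.6), base 103251591 of chromosome 8 in 8q22.3 (57.2 and 46.9), base 16768622 of chromosome 17 in 17p11.2 (47.0 and 51.4) and base 90691926 of chromosome 9 in 9q22.1 (43.5 and 51.9). Their ranks among all pairs were 366, 466, 515 and 656, which leaves a gap after the sixth isolated pair at rank 92. The pair in 17p11.2 also had 72 other pairs within 1 Mb, well above the upper quartile of 29 for isolated pairs.

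The 8 most isolated pairs had no pair within 1 Mb and mostly ordinary or low scores. At base 22572670 of chromosome 21 in 21q21.1 the nearer neighbour lay 2001 kb away and the farther 4.19 Mb, and the percentiles were 28.3 in replicate 1 and 56.1 in replicate 2. That nearer neighbour was itself among the 8 most isolated, at base 20571307 in the same band, with percentiles of 73.2 and 71.1. Base 97850693 of chromosome 11 in 11q22.1 (nearer neighbour 1.69 Mb, percentiles 31.5 and 30.3) and base 92002391 in 11q14.3 (1.27 Mb, 48.3 and 48.7) were nearly equal in the libraries. Base 94314048 of chromosome X in Xq21.33 (1.39 Mb, 39.4 and 66.9) followed an empty stretch of 7.65 Mb. Base 61968922 of chromosome 7 in 7q11.21 (1.39 Mb, 76.4 and 51.0) followed one of 5.79 Mb that crosses the centromere. Base 117248582 of chromosome 2 in 2q14.1 (1.32 Mb, 19.2 and 12.03) and base 61031210 of chromosome 4 in 4q13.1 (1.303 Mb, 12.2 and 44.99) had the lowest mean percentiles of the 8. The stretches called empty held no pair, but the rule leaves aside summits found in a single list. The nearest such summit lay 425 bp away in 2q14.1, 1.45 kb in 7q11.21 and 13.7 kb in 11q22.1. In 4q13.1 it lay 35.8 kb away and in 11q14.3 88.4 kb. It was 1256 kb away in Xq21.33, and 2905 and 903.6 kb from the first and second pair in 21q21.1. How much of the empty stretches can be mapped by reads was not tested.

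Isolated pairs were found in darkly staining bands far more often than other pairs. As background, the bands that Giemsa leaves pale hold most genes, and those it stains dark are poor in genes. Bands of 100% stain held 473 isolated pairs, or 23.4% of them (95% exact interval 21.5 to 25.3), against 6.80% of the other pairs and 16.4% of the length. Unstained bands held 767, or 37.9% (35.8 to 40.05), against 58.4% of the other pairs and 42.4% of the length. Bands of 25%, 50% and 75% stain held 139, 296 and 310 isolated pairs. The comparison with length turned under other settings: the share in unstained bands was above 42.4% at an isolation distance of 50 kb (44.7%), above the median score (46.7%) and among the 10000 highest-scoring summits (54.9%), where the share in bands of 100% stain was 9.48%. The rule asks for few neighbours, so a contrast between bands of different density is partly set by it.

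Expressed per length, isolated pairs were spread far more evenly than pairs in general. There were 0.595 isolated pairs per Mb in unstained bands and 0.949 in bands of 100% stain, while all pairs numbered 21.2 and 7.14 per Mb. The share of pairs that were isolated was 2.81% (2.62 to 3.02) in unstained bands, 2.47% at 25% stain, 4.85% at 50%, 6.84% at 75% and 13.3% (12.2 to 14.4) at 100%. Bands of variable heterochromatin had 22 isolated of 127 pairs (17.3%, 11.2 to 25.04) and centromeric bands 17 of 181 (9.39%, 5.57 to 14.6). In unstained bands the isolated pairs had median percentiles of 52.5 and 56.1 in replicates 1 and 2, against 60.0 and 65.1 for the others there. In bands of 100% stain they had 46.2 and 54.1 against 55.8 and 60.3, and the isolated pairs had the lower median in all 5 G-band classes in both lists. The 22 isolated pairs in variable heterochromatin had the higher medians, 61.0 and 79.8, against 58.2 and 65.1 for the 105 others there. In centromeric bands the 17 isolated pairs had 51.6 and 58.9, against 56.5 and 58.2 for the 164 others. These classes are small.

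Among chromosomes, 13 and X had the largest share of isolated pairs, 12.98% (98 of 755, interval 10.7 to 15.6) and 12.3% (124 of 1011, 10.3 to 14.4), and their intervals overlap. Chromosome 5 followed with 8.71% (162 of 1860). The smallest shares were 0.844% on chromosome 19 (20 of 2370, 0.516 to 1.3), 0.919% on chromosome 22 (11 of 1197) and 1.09% on chromosome 17 (30 of 2756), again with overlapping intervals. On chromosome 19, 14 of the 20 isolated pairs lay in or beside centromeric or heterochromatic bands, and without such pairs its share was 0.262%. By number, chromosomes 2 and 4 held most, 173 and 172, and per Mb the range was from 0.214 on chromosome 22 to 0.900 on chromosome 4. All pairs numbered 6.56 per Mb on chromosome 13, 6.51 on X and 10.3 on 5, against 40.1 on 19, 23.3 on 22 and 33.9 on 17. The order was not strict, as chromosomes 18 and 21 had 8.81 and 8.77 per Mb and shares of 7.56% and 6.16%, below that of chromosome 5. The rule asks for few neighbours, so a ranking of chromosomes of different density is partly set by it. Chromosome copy number was not analysed here.

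**Figure D3:**
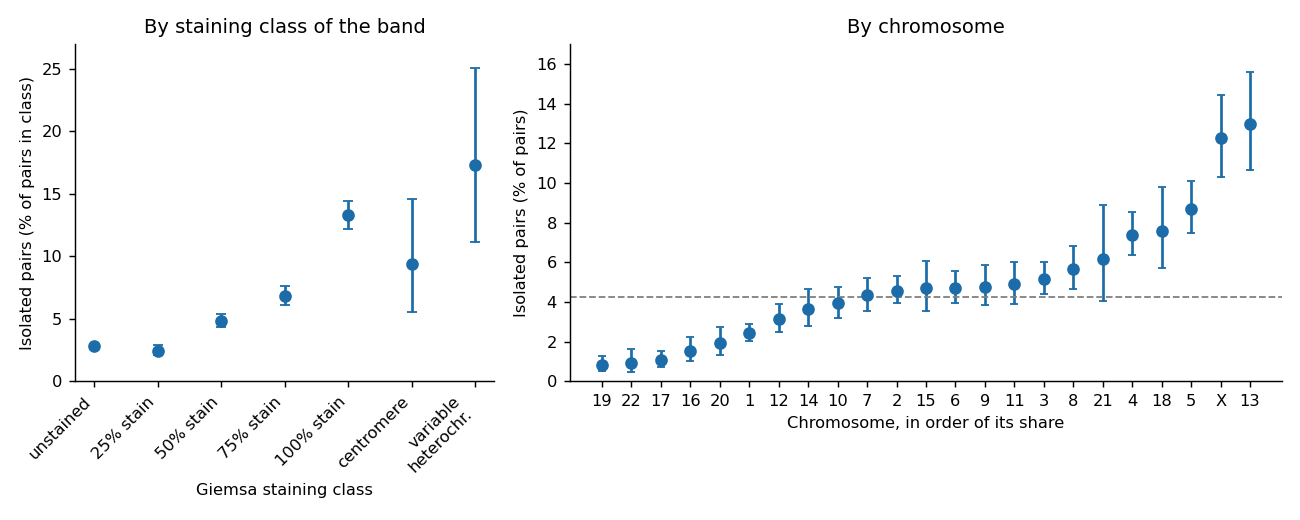
Share of pairs that were isolated in percent (vertical axes), by Giemsa staining class of the band on the left and by chromosome in order of the share on the right, with 95% exact binomial intervals; the dashed line is the 4.27% of all pairs. The share is 2.81% in unstained bands and 13.3% in bands of 100% stain, and runs from 0.844% on chromosome 19 to 12.98% on chromosome 13.

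Of 797 bands with at least 1 pair, 632 held an isolated pair. The band with most was 1p31.1, with 15 isolated of 128 pairs, followed by 4q28.3 with 13 of 33 (39.4%, 22.9 to 57.9), 4p15.1 with 13 of 35 (37.1%), 3q26.1 with 13 of 37 (35.1%), 5q23.2 with 13 of 52 and 10q21.1 with 13 of 89. All but 5q23.2, which is unstained, are bands of 100% stain. Among bands with 20 pairs or more the largest shares were those of 1q31.1 (9 of 22, 40.9%), 5q21.1 (10 of 25, 40%) and 4q28.3, with intervals that overlap. At the other end, 165 bands held pairs and no isolated one. The fullest were 19p13.3 with 439 pairs, 17q25.3 with 291 and 12q24.31 with 257, all unstained. Taking 3 counts of the pairs as the limit that a count of 0 allows, the share there is up to 0.683%, 1.03% and 1.17%, and the upper bounds of the 95% exact interval are 0.837%, 1.26% and 1.43%. Near chromosome ends isolated pairs were also fewer, with 107 (5.29%, 4.35 to 6.35) within 5 Mb of an end against 10.4% of the other pairs.

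Agreement between the lists was first measured on the pairs themselves. The paired summits of an isolated pair lay a median of 26 bp apart (quartiles 11 and 44), and those of the other pairs also 26 bp (11 and 46). The summits fell on the same base in 40 isolated pairs (1.98%) and within 10 bp in 485 (24.0%), against 1.86% and 24.1% of the others. More than 50 bp separated them in 394 (19.5%), against 20.8%. The summit of replicate 2 lay to the right in 1021 isolated pairs and to the left in 963. Among summits that paired, the position was about as close between the lists for isolated pairs as for the rest. Pairing required summits no more than 100 bp apart, so these distances are cut at that limit and leave out summits without a partner.

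The scores of isolated pairs were less closely ordered. Spearman's rank correlation between the lists was 0.637 across the 2024 isolated pairs and 0.732 across the others, and Pearson's correlation on log2 scores gave 0.690 and 0.744. These are correlations across sites of the same 2 libraries and carry no p-value. The percentile in replicate 2 was higher than in replicate 1 for 1131 isolated pairs (55.9%) and for 57.3% of the others. For isolated pairs the difference, replicate 2 minus replicate 1, had a median of 3.08 points. Its quartiles were -9.45 and 17.3 and its SD was 21.8. For the other pairs the median was 2.44 points, the quartiles -7.75 and 16.0 and the SD 21.2. The size of the difference without its sign had a median of 12.9 points for isolated pairs and 11.7 for the others, and exceeded 25 points in 24.8% and 22.8%. By decile of mean percentile that median was larger for isolated pairs in 5 deciles (5 to 8 and 10) and smaller in the other 5. Over deciles 1 to 5 it was 17.1 for isolated pairs against 19.5, and over deciles 6 to 10 it was 8.61 against 7.24. Among pairs in deciles 6 to 10, Spearman's correlation was 0.484 for 781 isolated pairs and 0.601 for the others, and in deciles 1 to 5 it was 0.082 and 0.0751. These deciles are cut on the mean of the same 2 percentiles, which by itself lowers a correlation within them. The values therefore do not measure how well the lists agree at low or high scores.

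**Figure D4:**
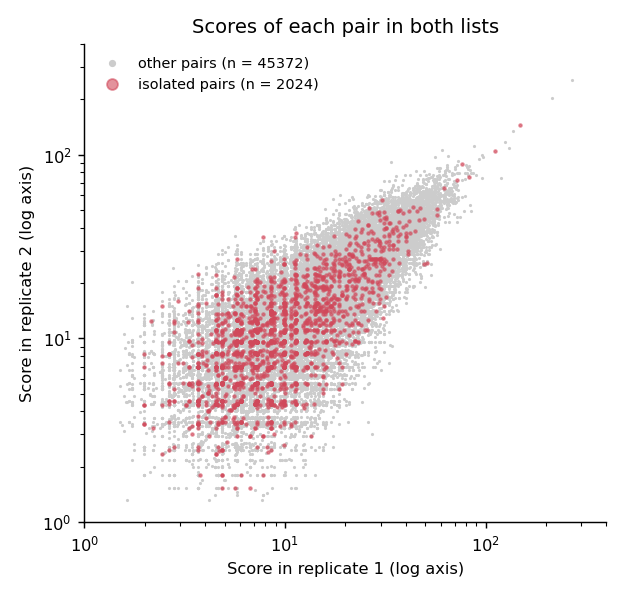
Score of each pair in replicate 1 (horizontal axis) and replicate 2 (vertical axis), both on log axes, with the 2024 isolated pairs in red and the 45372 other pairs in grey. The isolated pairs run from 1.99 to 148.7 in replicate 1 and the others from 1.51 to 270.2, and rows of points at low scores are the repeated score values.

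The 5 isolated pairs with the largest difference between the lists all had the higher percentile in replicate 2. At base 80597418 of chromosome 5 in 5q14.1 the scores were 3.697 and 22.4, or percentiles of 8.16 and 86.4. Base 40853207 of chromosome 2 in 2p22.1 had percentiles of 8.16 and 81.0, and base 69522009 of chromosome 4 in 4q13.2 had 3.62 and 75.7. Base 70586034 of chromosome 5 in 5q13.2 had 1.27 and 73.2, with a summit of a single list 490 bp away. Base 105115375 of chromosome 11 in 11q22.3 had 14.5 and 85.8, although its summits lay only 8 bp apart. In 4 of the 5 the summits were 46 to 63 bp apart, more than the median of 26 bp.

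The rule counts pairs as neighbours and leaves aside the summits that occur in a single list, 14891 in replicate 1 and 25251 in replicate 2. Such a summit lay within 100 kb of 1325 isolated pairs (65.5%, 63.3 to 67.5), within 10 kb of 479 (23.7%) and within 1 kb of 158 (7.81%, 6.67 to 9.06). For the other pairs these shares were 96.3%, 51.4% and 14.8%. The remaining 699 isolated pairs (34.5%) had no other summit of either library within 100 kb, 575 (28.4%) were free of others in replicate 1 alone, 237 (11.7%) in replicate 2 alone and 513 (25.3%) in neither. The 699 had median percentiles of 48.3 in replicate 1 and 54.1 in replicate 2, against 50.1 and 56.1 for the 1325 with a neighbour from a single list. Their Spearman correlation between the lists was 0.590 against 0.660. Single-list summits within 100 kb of an isolated pair had median percentiles of 24.8 in replicate 1 (1021 summits) and 27.4 in replicate 2 (1778 summits), the same as single-list summits elsewhere.

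Agreement was also measured without using the pairs to define isolation, by taking the summits that had no other summit of their own list within 100 kb and looking for them in the other list. Replicate 1 had 1880 such summits, 3.02% of its list, and 1274 of them, or 67.8% (65.6 to 69.9), had a partner in replicate 2. Summits of replicate 1 that were not isolated had one in 76.4% (76.0 to 76.7). Replicate 2 had 1775, of which 937 or 52.8% (50.4 to 55.1) had a partner in replicate 1, against 65.6% (65.2 to 65.9). For 311 isolated summits of replicate 1 (16.5%) and 605 of replicate 2 (34.1%) the other library had no summit at all within 100 kb. Among summits that were not isolated this held for 83 (0.137%) and 391 (0.552%). Isolated summits are chosen in sparse stretches, so that contrast is partly set by the choice. By the shares with a partner, a lone summit of either library was found again less often than a summit with neighbours. The 2 directions are not separate, because pairs isolated in both lists count in each, and scores were not matched in these shares.

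Lone summits had lower scores, with a median percentile of 39.4 in replicate 1 and 38.9 in replicate 2, and the share with a partner depends on the score. Taken within deciles of the score of each list, it was lower for isolated than for other summits in 8 of 10 deciles of replicate 1 and in 9 of 10 of replicate 2. The exceptions were deciles 6 and 10 of replicate 1 and decile 8 of replicate 2 (94.7% against 89.4%). In decile 4 it was 60.7% (54.6 to 66.6) against 70.3% in replicate 1, and 41.1% (35.3 to 47.1) against 52.3% in replicate 2. The interval lay wholly below that of the other summits in 2 deciles of replicate 1 and in 4 of replicate 2. In the highest decile the shares were 94.6% (87.8 to 98.2) against 94.1% in replicate 1 and 94.4% (86.4 to 98.5) against 94.6% in replicate 2. No difference was detectable there with 92 and 72 isolated summits.

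**Figure D5:**
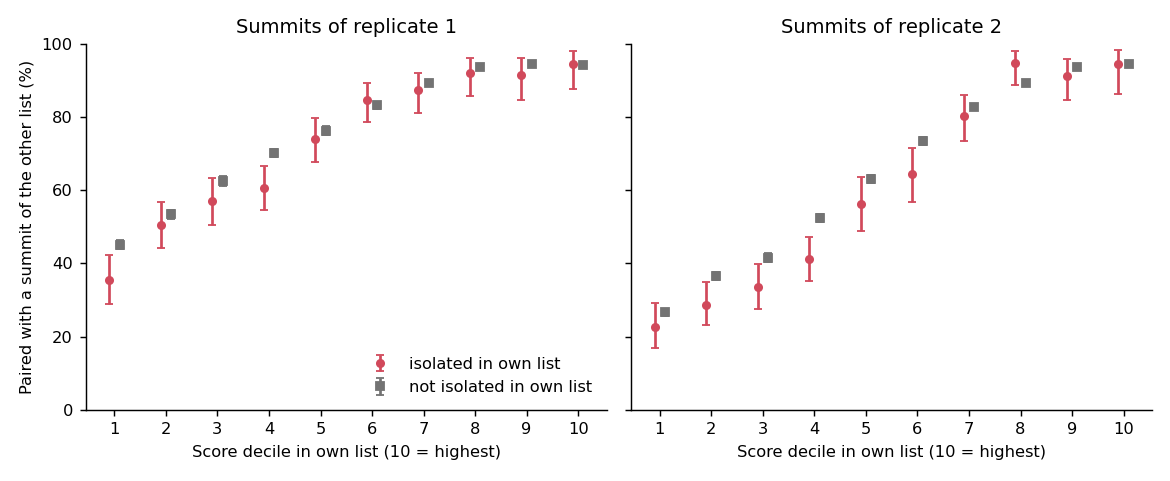
Share of summits with a partner within 100 bp in the other list, in percent (vertical axis), by score decile within the own list (horizontal axis), for summits of replicate 1 on the left and replicate 2 on the right. Red circles are summits with no other of their own list within 100 kb, grey squares the rest, and bars are 95% exact binomial intervals; in decile 4 the red points are at 60.7% and 41.1%, below the grey ones at 70.3% and 52.3%.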

How the data were processed

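The authors deposited for each ChIP library a headerless list of 1 bp summits with a peak name and a score of unstated scale. Per the submitters' processing notes the coordinates are on hg19. Aligner, peak caller, threshold and use of the input: not given in the sources used here. Which summits are listed, and so which pairs stand alone, depends on that threshold and on sequencing depth. Positions were made 1-based and 35 and 45 summits off chromosomes 1 to 22 and X were left out. Score percentiles are mean ranks within a list.

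Bands came from circlize 0.4.16, and their ends equalled the hg19 lengths of GenomeInfoDb 1.38.1 on 23 of 23 chromosomes. Python 3.11.15, NumPy 2.4.6, pandas 2.3.3, SciPy 1.17.1 and matplotlib 3.10.9 were used. Pairing and isolation were tested on simulated data. The named pairs are the 10 of highest mean percentile, the 8 with the farthest nearer neighbour, the 5 with the largest difference between lists and 3 on each side of the limit, with the 3 highest and lowest chromosomes and bands. The rule and these choices were made with earlier results of these data known. Runs, classes by local number of pairs and by rank, repeated scores, and the bands named beyond the first 3 were chosen after their values were seen. No hg19 sequence or gene annotation was used here, so the planned analyses of sequence motifs, start sites and gene lists, with their alternatives, were not run, and no sequence is shown. Alternatives changed the pairing limit, the isolation distance, the neighbours counted, the score range, the chromosome ends and the list used. No test was made, because the rule used these libraries.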

Additional observations from a re-analysis of the deposited data

How the results depend on the processing

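Isolated pairs had the lower median score percentile under all 26 alternative values (-11.1 to -4.54 points), the lower Spearman correlation under 11 (difference -0.144 to -0.042) and the larger isolated share in bands of 100% stain than in unstained bands under 13. The number of isolated pairs was 5044 with an isolation distance of 50 kb, 666 with 200 kb and 699 with all summits of either list as neighbours. Sparser or denser lists move these values by construction.

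The share of pairs that were isolated was 6.02%, 3.94% and 3.85% at pairing limits of 50, 200 and 500 bp, 10.6% and 1.41% at distances of 50 and 200 kb, 1.47% with all summits as neighbours, 10.2% above the median score and 33.5% among the 10000 highest-scoring summits. The median percentile was 58.3 among the 10000 highest-scoring and 40.3 when ranked within the paired summits. Spearman's correlation was 0.668 and 0.586 at 50 and 200 kb, 0.590 with all summits as neighbours and 0.537 among the 10000 highest. The median distance within pairs was 20, 28 and 28 bp at the pairing limits, 23 bp above the median score and 20.5 bp among the 10000 highest.

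The share in unstained bands was 44.7% and 32.3% at 50 and 200 kb, 35.5% with all summits as neighbours, 46.7% above the median score and 54.9% among the 10000 highest, so that it passed the 42.4% of the length in 3 of these. In bands of 100% stain (16.4% of the length) it was 21.5% at a pairing limit of 50 bp, 17.5% and 30.2% at 50 and 200 kb, 16.8% above the median score and 9.48% among the 10000 highest. The share with a single-list summit within 100 kb was 75.3%, 62.6% and 61.9% at the pairing limits, 78.4% and 53.5% at 50 and 200 kb, 59.2% above the median score and 46.4% among the 10000 highest.

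With either list alone, without replicate 1 or without replicate 2, 1775 to 1880 summits were isolated, 2.44% to 3.02% of the list, with a median percentile of 38.9 to 39.4, 35.3% to 36.3% in unstained bands and 25.8% to 26.0% in bands of 100% stain. Leaving out chromosome X, or pairs beside centromeres, heterochromatin and stalks, was chosen after seeing the data and gave 1900 and 1974 isolated pairs. The share of isolated pairs, their percentile, correlation, distance within pairs and band shares stayed within their intervals or spread. The score difference of replicate 1 was -9.91 and -11.1 points, and without the pairs beside such bands the share on chromosome 19 was 0.262%. The share isolated among the 20 highest pairs ran from 5% to 30% and that of ranks 101 to 1000 from 0.222% to 28.7%. Of the main values (number, share, percentile, correlation, distance within pairs, band shares and single-list share), 46 moved past their interval, spread or set range and 52 did not. Of the other values, 97 moved past their interval or spread and 134 did not. Many of the 134 could not move, because the percentiles of named pairs do not depend on the pairing limit, isolation distance or chromosome ends. The share of the highest 20 also had a wide interval (3.21 to 37.9%). The alternatives for motif windows and start site distances were not run. No paired analysis was possible because only the ChIP group had files.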
